A study of Mus musculus with 6 samples.

Results

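The 10 genes described here encode the glycolytic enzymes that act from aldolase to pyruvate kinase: Aldoa, Aldoc, Tpi1, Gapdh, Pgk1, Pgam1, Eno1, Eno2, Eno3 and Pkm. They were taken by symbol from the deposited expression table, which held all 10 of them among its 21448 genes. The table compares B cells of primary lymphomas from Eµ-Myc transgenic mice, a model in which the enhancer of the heavy chain locus drives Myc in the B lineage and tumours follow. Both groups carry the transgene, and each has 3 libraries, one group labelled wild type (WT) and the other PRDM15 knockout (PRDM15KO). All cells were cultured with IL7 and exposed for 24 hours either to 4-hydroxytamoxifen at 50 nM, the agent that triggers deletion of Prdm15, or to ethanol, and were collected 3 days later. Whether ethanol was given to the WT libraries is inferred from the protocol, since the labels of single libraries give only the genotype and a replicate number. If it was, exposure to 4-hydroxytamoxifen and deletion of Prdm15 cannot be told apart in this comparison. No label states the age of the mice, the Cre driver or whether libraries of the 2 groups share a tumour. The series' title links PRDM15, a transcriptional regulator with zinc fingers, to B cell metabolism, so the comparison asks how the transcripts of these metabolic enzymes differ between the groups.

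Glycolysis splits glucose into pyruvate. Aldolase cleaves fructose 1,6-bisphosphate into a pair of triose phosphates, which triosephosphate isomerase interconverts. Glyceraldehyde-3-phosphate dehydrogenase and phosphoglycerate kinase then oxidise the triose and make ATP, and phosphoglycerate mutase, enolase and pyruvate kinase turn the product into pyruvate with a further yield of ATP. Aldolase and enolase each exist as isozymes from separate genes, a widespread form (Aldoa, Eno1) and forms best known from brain (Aldoc, Eno2) or muscle (Eno3). Several of these genes are textbook targets of the hypoxia factor HIF1 and of MYC.

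The transcripts of this stretch of glycolysis were lower in the libraries labelled PRDM15KO at every step. Among the 10 genes, Tpi1, Pgk1, Pkm, Aldoa, Eno1, Pgam1 and Gapdh fell, by 1.76-fold (Gapdh) to 4.33-fold (Pgk1) in the ratio of the group means. Aldoc and Eno3 were lower in all 3 pairs of libraries without passing the test, and Eno2 was close to the detection floor in both groups. A gene is said to have fallen where its adjusted p was under 0.05 in limma's test over all tested genes with the replicate number as a block (called paired here), on log2 of the value plus 1. Of 10533 tested genes, 0.741% were lower by that rule, against 7 of the 9 members tested; Eno2 had a mean value under 1 and was not tested. Without the pairs, which was the planned main fit, limma called 0 of the 9, against 0.00949% of all tested genes lower. At an unadjusted p under 0.05 that fit held 8 of the 9 and 4.06% of all tested genes. The paired count was 9 without replicate 1 (3.36% of all tested genes lower) and 0 without replicate 2 or without replicate 3, where each of the 9 had an unadjusted p under 0.05, as did 13.4% and 11.8% of all tested genes. With the pairs, edgeR called 3 of the 9 (Tpi1, Pgk1 and Pkm; 0.323% of all tested genes lower) and DESeq2 called all 9 (3.99%). Without the pairs, edgeR called 0 of the 9 (0% of all tested genes lower) and DESeq2 called 8 (0.75%). In that edgeR fit 8 of the 9 had an unadjusted p under 0.05, as did 582 of all 10533 tested genes. Members were proposed with earlier results of these data known, so these counts describe the list and carry no test of it.

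**Figure D1:**
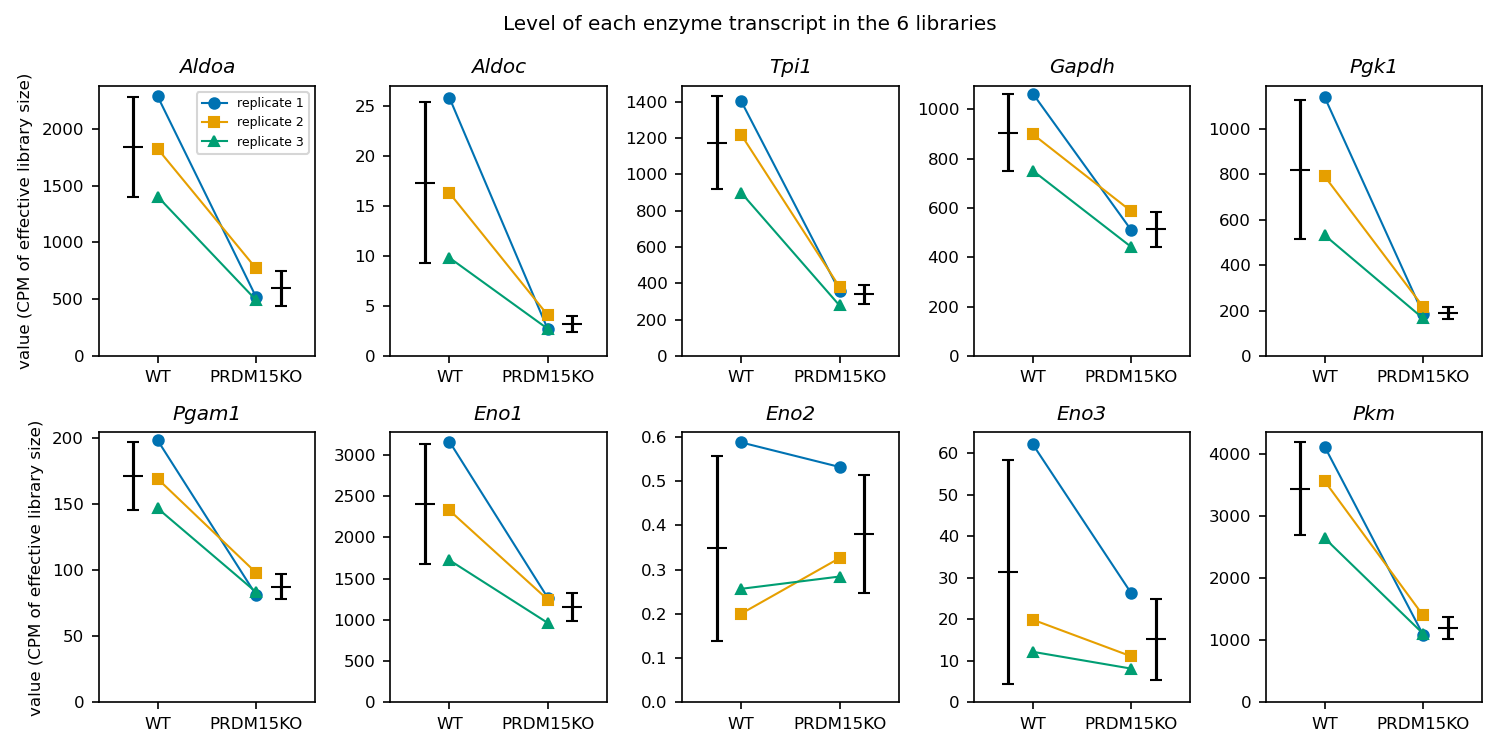
Level of each of the 10 enzyme transcripts (vertical axes from 0, in CPM of effective library size) in each WT and PRDM15KO library, with lines joining libraries of equal number; a black bar gives the mean and its whiskers the SD (n = 3). In 8 panels every PRDM15KO library lies below every WT library, while Eno2 and Eno3 overlap between the groups.

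Values are gene read counts scaled to an effective library size (CPM), and are not divided by gene length. The libraries held 28852951 to 47255421 gene-assigned reads. Both fits are given because the members were to be compared by group and by matching replicate number. Libraries of equal number deviated together from their group means (correlation across genes 0.73 to 0.84). Prdm15 was at 29.2, 47.3 and 41.3 in WT replicates 1, 2 and 3 and at 40.2, 40.9 and 39.2 in the PRDM15KO libraries; a sum over the gene cannot show a deleted exon, so it does not check the labels. All 10 B cell markers of a fixed list were detected in both groups, with summed levels of 1908 to 2668 in WT and 1904 to 2543 in PRDM15KO. The summed level of 16 myeloid markers, of which the granulocyte genes Mpo, Elane, S100a8 and S100a9 stayed below 1 throughout, was 52.3 to 193 in WT and 32.7, 2001 and 1088 in PRDM15KO replicates 1, 2 and 3. The sum of 7 T cell markers was 0.941 to 2.03 in WT and 4.09, 24.3 and 6.73 in PRDM15KO. In PRDM15KO replicate 3, Cd28 alone was at 6.09 and each other T cell marker was at 0.213 or lower. In bulk RNA, fewer cells of a type and less RNA per cell cannot be told apart.

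Promoter sequences are shown for 4 of the genes as a description. The part of any motif in the changes was not tested. RefSeq's table (build GRCm38.p6, another build than the mm9 named for the counting) matched all 10 genes with 16 start sites. The 250 bases before each start were searched on both strands for ACGTG, a form of the core of the HIF response element. The E-box CACGTG, which contains ACGTG and is bound by MYC, was searched as well. The other form of the HIF core, GCGTG, was not counted over all genes. Windows without ACGTG can hold it: GCGTG or its reverse complement CACGC lies in windows of Gapdh, Eno1, Eno3 and Aldoc. ACGTG occurred upstream of Aldoa, Pgk1, Pgam1 and Pkm, 4 of the 10 genes, against 18.5% of all genes in the table. The members have more windows per gene, 16 for 10 genes against 32851 for 27025 genes. By window, ACGTG occurred in 5 of 16, against 16.6% of all windows. The Aldoa windows with a match overlap and hold the same site, and 140 of the 250 bases of the Pkm window lie in annotated exons. CACGTG occurred upstream of 0 of the 10, against 6.86% of all genes. The printed windows overlap no annotated exon of their gene, and capitals mark ACGTG or its reverse complement CACGT. The Pgk1 window is chrX:106186850-106187099 on the plus strand, Aldoa chr7:126799255-126799504 on the minus strand, Pgam1 chr19:41911621-41911870 on the plus strand and Gapdh chr6:125165774-125166023 on the minus strand.
Pgk1: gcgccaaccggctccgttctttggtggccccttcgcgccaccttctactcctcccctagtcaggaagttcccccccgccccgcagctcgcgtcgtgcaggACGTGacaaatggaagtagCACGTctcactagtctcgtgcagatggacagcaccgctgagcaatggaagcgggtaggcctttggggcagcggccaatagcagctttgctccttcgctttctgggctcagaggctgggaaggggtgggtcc
Aldoa: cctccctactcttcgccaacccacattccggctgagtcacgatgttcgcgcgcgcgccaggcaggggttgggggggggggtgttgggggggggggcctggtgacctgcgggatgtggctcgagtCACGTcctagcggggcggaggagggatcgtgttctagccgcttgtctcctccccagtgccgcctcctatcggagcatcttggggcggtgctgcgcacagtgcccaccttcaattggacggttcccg
Pgam1: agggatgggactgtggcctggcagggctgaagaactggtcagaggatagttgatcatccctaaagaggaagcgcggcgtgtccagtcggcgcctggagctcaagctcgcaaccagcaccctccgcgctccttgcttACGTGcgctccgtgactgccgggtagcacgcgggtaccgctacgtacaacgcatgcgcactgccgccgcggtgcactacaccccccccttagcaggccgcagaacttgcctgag
Gapdh: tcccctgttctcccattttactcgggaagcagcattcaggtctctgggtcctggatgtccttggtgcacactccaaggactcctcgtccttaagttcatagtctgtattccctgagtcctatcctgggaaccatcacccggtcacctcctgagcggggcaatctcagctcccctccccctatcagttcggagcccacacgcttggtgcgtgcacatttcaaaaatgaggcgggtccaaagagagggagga
The Pgk1 window held 2 matches, starting 150 and 131 bases upstream of the start, Aldoa held 1 match 126 bases upstream and Pgam1 held 1 match 114 bases upstream. The Gapdh window held no ACGTG on either strand, and neither did the windows of Tpi1, Eno1, Eno2, Eno3 and Aldoc. It did hold the other form, as GCGTG and as CACGC, so it is not a window without a HIF core. A match is a run of letters and not a measured binding site.

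At the aldolase step, Aldoa, the widespread isozyme, carried nearly all of the signal. Its value was 2284, 1823 and 1403 in WT replicates 1, 2 and 3 and 519, 771 and 492 in PRDM15KO replicates 1, 2 and 3. The groups did not overlap, and the lowest WT library stood 1.82 times above the highest PRDM15KO library. Aldoa fell to 32.3% of its WT mean (1837 ± 441 to 594 ± 154; mean ± SD, n = 3), a log2 change of -1.63 ± 0.17 (SE, paired limma adjusted p = 0.0414, unpaired 0.194). Aldoc, the brain-type isozyme, was at 25.8, 16.3 and 9.80 in WT and at 2.66, 4.06 and 2.70 in PRDM15KO, again without overlap. Its log2 change of -2.06 ± 0.27 did not pass, with a paired limma adjusted p of 0.0506 (unpaired 0.299). The size depended on the pseudocount, being -2.34 with 0.1 and -1.39 with 5 added to the values. Aldoc rested on 458 to 965 reads per WT library and 80 to 162 per PRDM15KO library, against 15610 to 85508 for Aldoa.

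Triosephosphate isomerase, Tpi1, which keeps both aldolase products in the pathway, had the smallest paired p of all 10533 tested genes. It was at 1403, 1218 and 899 in WT and at 358, 379.6 and 278 in PRDM15KO, so that the lowest WT library stood 2.37 times above the highest PRDM15KO library. The log2 change was -1.78 ± 0.08 (SE, paired limma adjusted p = 0.0120, unpaired 0.122). The pairs lay close together at -1.97, -1.68 and -1.69. Their SD of 0.16 was the smallest of the 9 tested members.

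Gapdh, which oxidises glyceraldehyde 3-phosphate and is often used as a reference transcript, changed least among the members that fell. It was at 1063, 898 and 751 in WT and at 509.8, 586 and 442 in PRDM15KO. No PRDM15KO library reached the WT range, although the gap was small, the lowest WT library standing 1.28 times above the highest PRDM15KO library. The PRDM15KO mean was 56.7% of the WT mean (log2 change -0.81 ± 0.10 SE, paired limma adjusted p = 0.0429, unpaired 0.537). Phosphoglycerate kinase, Pgk1, which makes the first ATP of the pathway, was at 1140.1, 791 and 532 in WT and at 186, 217 and 166 in PRDM15KO. Pgk1 spread 2.14-fold between the highest and lowest WT library and 1.31-fold among the PRDM15KO libraries. It fell to 23.1% of its WT mean (log2 change -2.05 ± 0.18 SE, paired limma adjusted p = 0.0313, unpaired 0.171), the largest fall among the members past the test.

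Phosphoglycerate mutase, Pgam1, which moves the phosphate group ahead of enolase, was at 199, 169 and 147 in WT and at 81.5, 98.3 and 83.6 in PRDM15KO. Its libraries varied least, 1.35-fold within WT and 1.21-fold within PRDM15KO. Pgam1 fell to 51.1% of its WT mean (log2 change -0.95 ± 0.11 SE, paired limma adjusted p = 0.0429, unpaired 0.194).

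At the enolase step, Eno1, the widespread enolase, was at 3159, 2325 and 1723 in WT and at 1267, 1244 and 962 in PRDM15KO. The WT libraries were widely spread but all lay above the PRDM15KO libraries. Eno1 fell to 48.2% of its WT mean (log2 change -1.02 ± 0.11 SE, paired limma adjusted p = 0.0414, unpaired 0.792). Eno3, the muscle-type enolase, was at 62.1, 19.9 and 12.2 in WT and at 26.3, 11.1 and 8.13 in PRDM15KO. Replicate 1 was the highest of both groups, and the groups overlapped, since PRDM15KO replicate 1 exceeded WT replicates 2 and 3. Eno3 changed on the log2 scale by -1.21 in pair 1, -0.79 in pair 2 and -0.53 in pair 3, with a mean of -0.84 (SE 0.14, paired limma adjusted p = 0.0799, unpaired 0.9998). It turned to 0.07 when PRDM15KO replicate 1 alone was set against the 3 WT libraries. Eno2, the neuron-type enolase, was at 0.588, 0.201 and 0.257 in WT and at 0.532, 0.326 and 0.285 in PRDM15KO, 8 to 22 reads per library. Its groups overlapped, with a log2 change of 0.04 on the scale of value plus 1, which is flat for values this low. The summed level of 5 muscle markers, such as Ckm, was 1.05 to 1.98 in WT and 0.602 to 2.39 in PRDM15KO. That of 5 neuronal markers was 102, 136 and 66.6 in WT replicates 1, 2 and 3 and 31.1, 150 and 52.2 in PRDM15KO. Of these 5, 3 stayed below 1 in every library.

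Pyruvate kinase, Pkm, which makes pyruvate and the last ATP, had the highest value of the members in each WT library. It was at 4126, 3569.6 and 2649 in WT and at 1094, 1405 and 1110.4 in PRDM15KO. The lowest WT library stood 1.88 times above the highest PRDM15KO library. Pkm fell to 34.9% of its WT mean (log2 change -1.50 ± 0.14 SE, paired limma adjusted p = 0.0330, unpaired 0.165). The gene gives the alternatively spliced M1 and M2 forms of the enzyme, which a sum over the gene does not separate.

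**Figure D2:**
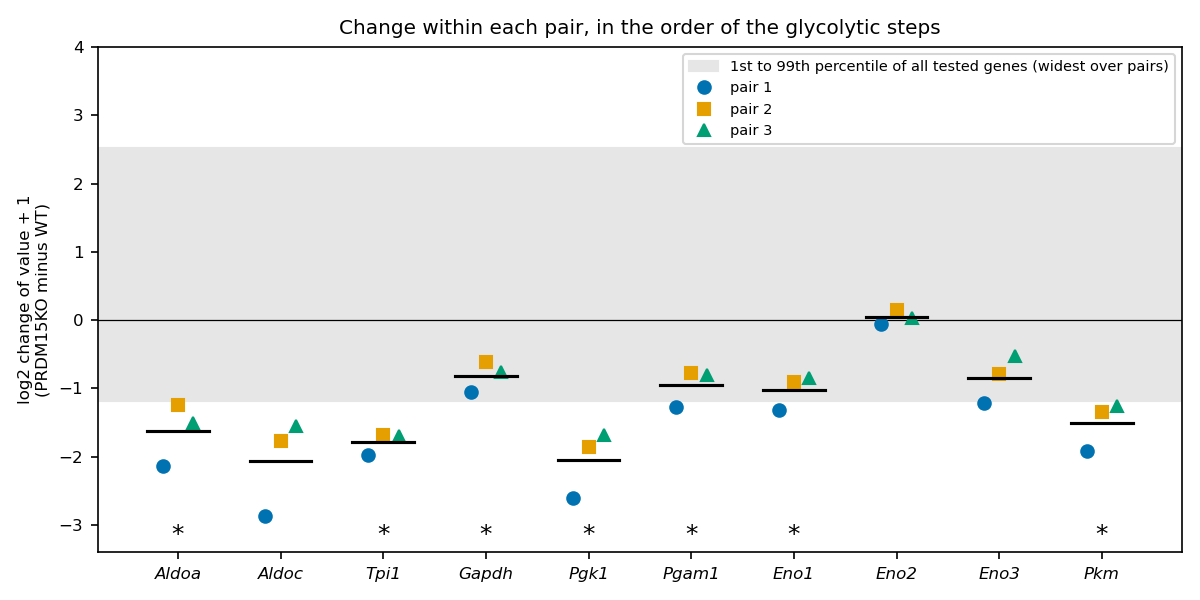
Log2 change of value plus 1, PRDM15KO minus WT (vertical axis), for each member in the order of the glycolytic steps, with 1 symbol per pair of equal replicate number, a black bar for the mean and an asterisk for a paired limma adjusted p under 0.05. Pair 1 lies lowest for each of the 10 members, and Tpi1 has the most even pairs at -1.97, -1.68 and -1.69.

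Each of the 9 tested members had the lower value in PRDM15KO in every pair, as had 29.9% of all tested genes, and in 8 of the 9 each PRDM15KO library lay below each WT library, as in 6.29% of all tested genes. The median log2 change of the 9 was -1.50, against -0.03 over all tested genes. In pairs 1, 2 and 3 the median of the 9 was -1.91, -1.24 and -1.25. Within pair 1 the myeloid sum was 52.3 in WT and 32.7 in PRDM15KO, and in pairs 2 and 3 it was 193 and 134 in WT and 2001 and 1088 in PRDM15KO. The part of those markers in the changes was not tested. WT replicate 1 was the highest WT library for each of the 9, against 30.6% of all tested genes, so part of the WT spread was shared by the members.

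The members did not all change by the same amount. Per library, 10 ratios between members were compared, 4 between isozymes and 6 between consecutive steps, each with an exact two-sided permutation test over the 6 libraries, for which the smallest possible p is 0.1. Gapdh stood higher relative to the step before it in every PRDM15KO library, with a log2 ratio of Gapdh to Tpi1 of -0.37 ± 0.09 in WT and 0.60 ± 0.08 in PRDM15KO (difference 0.97, exact p = 0.1). The log2 ratio of Pgk1 to Gapdh went the other way, from -0.19 ± 0.30 to -1.43 ± 0.02 (difference -1.24, exact p = 0.1). Pgam1 to Pgk1 went from -2.19 ± 0.33 to -1.10 ± 0.11 (difference 1.09, exact p = 0.1), and Pkm to Eno1 from 0.54 ± 0.14 to 0.06 ± 0.23 (difference -0.48, exact p = 0.1). In these 4 ratios the groups did not overlap and the 3 pairs had the same sign. Tpi1 to Aldoa (difference -0.15, exact p = 0.4) and Eno1 to Pgam1 (difference -0.07, exact p = 0.7) overlapped between the groups, the first with pairs of both signs and the second with pair differences of -0.04, -0.12 and -0.03. None of the 10 passes 0.05, a limit set by the number of libraries, and the smallest p adjusted over the 10 by Benjamini-Hochberg was 0.167.

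**Figure D3:**
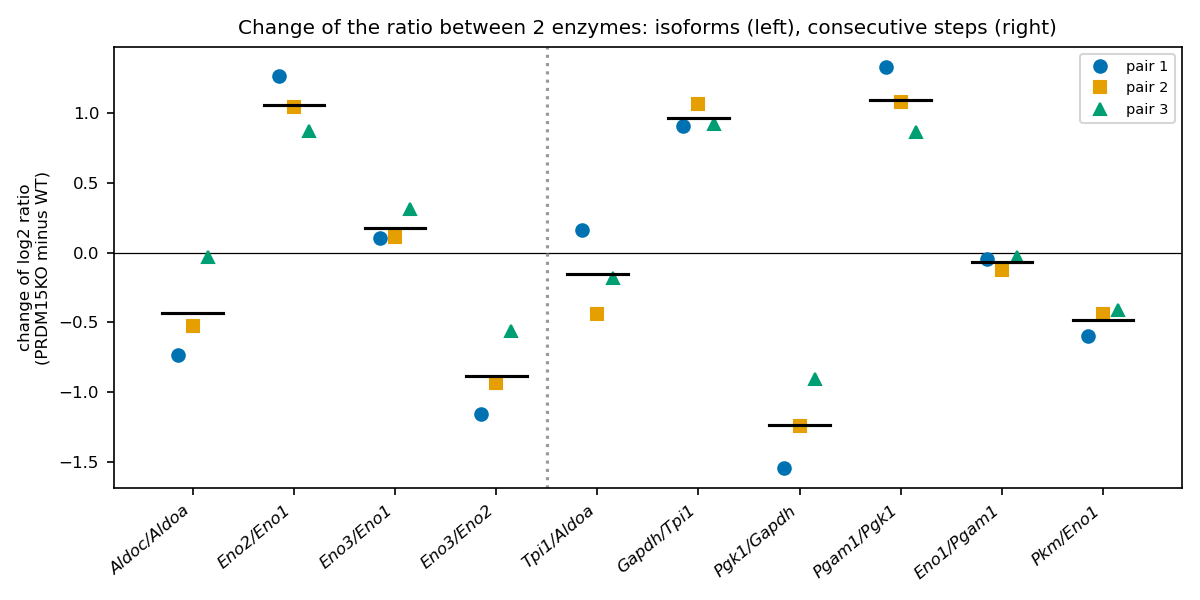
Change of the log2 ratio between 2 members, PRDM15KO minus WT (vertical axis), with 1 symbol per pair of libraries and a black bar for the mean, for 4 isozyme ratios left of the dotted line and 6 ratios of consecutive steps right of it. Gapdh/Tpi1 and Pgam1/Pgk1 lie above 0 in all 3 pairs and Pgk1/Gapdh and Pkm/Eno1 below 0 in all 3 pairs.

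Between isozymes, the log2 ratio of Aldoc to Aldoa was -6.72 ± 0.30 in WT and -7.15 ± 0.10 in PRDM15KO (difference -0.43, exact p = 0.1). That difference depended on the pseudocount, since it was -0.71 with 0.1 added to the values and 0.23 with 5 added. The log2 ratio of Eno3 to Eno1 overlapped between the groups (difference 0.18, exact p = 0.5), with pair differences of 0.11, 0.11 and 0.31. The log2 ratio of Eno2 to Eno1 was higher in PRDM15KO by 1.06 (exact p = 0.1), where Eno1 fell and Eno2 had few reads in both groups. Eno3 to Eno2 overlapped as well (difference -0.88, exact p = 0.3), with pair differences of -1.16, -0.93 and -0.56. Within pairs, an exact sign-flip test of 3 pairs cannot go below 0.25, the value it gave for each of these 4 ratios.

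Levels of different genes were compared per kb of the main annotated transcript (GENCODE M21). In WT, Pkm was highest at 1418 ± 307 per kb, followed by Aldoa (1215 ± 292), Eno1 (1185 ± 356), Tpi1 (730 ± 159), Gapdh (637 ± 110.0), Pgk1 (449.9 ± 167), Pgam1 (96.7 ± 14.5), Eno3 (20.1 ± 17.2), Aldoc (6.20 ± 2.88) and Eno2 (0.125 ± 0.075). Each neighbour from Pkm to Pgk1 overlapped the next in range, and so did Eno3 and Aldoc. In PRDM15KO, Eno1 (571 ± 83.6) was above Pkm (494.8 ± 72.04) in all 3 libraries, and Gapdh (361 ± 51.0) above Tpi1 (211 ± 33.3) without overlap, whereas in each WT library Pkm was above Eno1 and Tpi1 above Gapdh. With all exons of a gene as its length, Pkm stayed above Eno1 in PRDM15KO, Gapdh (124 ± 17.5) and Tpi1 (123 ± 19.5) were level there, and Gapdh went below Pgk1 in WT, so these places depend on the length used. Per kb, Aldoc made up 0.378% to 0.608% of Aldoa and Aldoc together in WT and 0.277% to 0.297% in PRDM15KO. Eno1 made up 97.5% to 99.1% of the 3 enolases in WT and 97.4% to 98.9% in PRDM15KO.

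**Figure D4:**
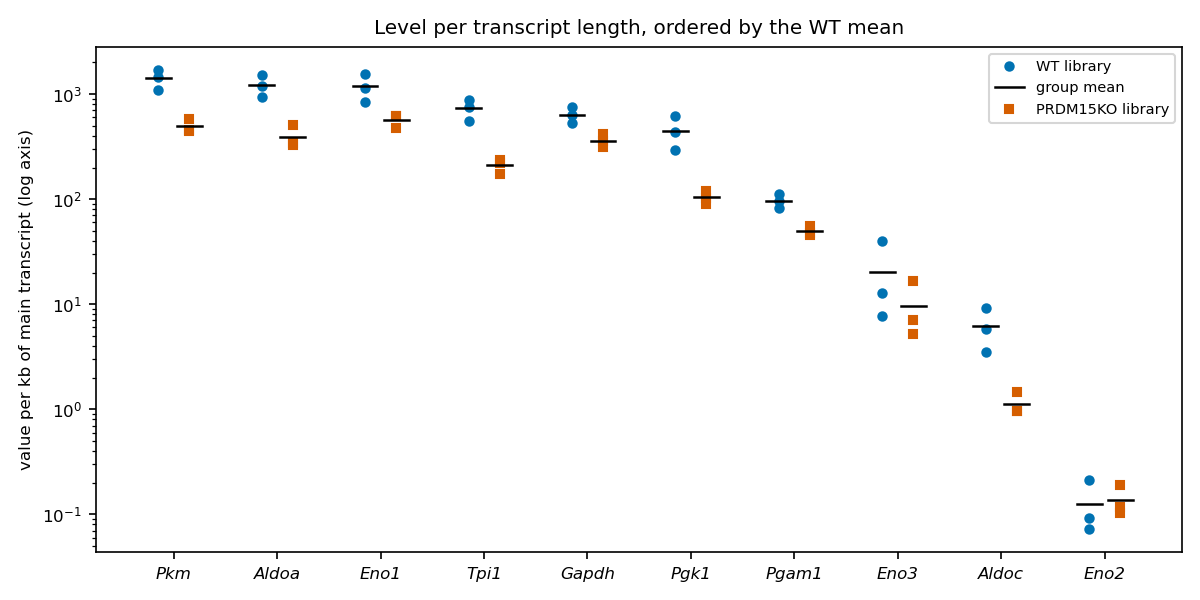
Value per kb of the main transcript (log axis) for each member in each WT (circles) and PRDM15KO (squares) library, with black bars for group means, ordered by the WT mean. The levels run from 1418 per kb for Pkm to 0.125 per kb for Eno2 in WT.

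The 10 genes together held 1.31%, 1.07% and 0.804% of the signal of all genes in WT replicates 1, 2 and 3 and 0.421%, 0.469% and 0.363% in PRDM15KO replicates 1, 2 and 3. The groups did not overlap, and the mean went from 1.06% ± 0.251 to 0.418% ± 0.053 (difference -0.641 percentage points, two-sided exact permutation p = 0.1, which 3 against 3 libraries cannot undercut). Within the 10, Gapdh took 7.90% to 9.24% in WT and 12.4% to 12.6% in PRDM15KO, while Pgk1 took 6.55% to 8.47% and 4.60% to 4.68%. Tpi1 took 10.4% to 11.2% in WT and 7.84% to 8.84% in PRDM15KO, and Eno1 21.2% to 23.5% and 26.4% to 31.3%. Pgam1 took 1.47% to 1.81% in WT and 2.01% to 2.36% in PRDM15KO. Eno1, Gapdh and Pgam1 thus took more of a smaller total in PRDM15KO, without overlap between the groups. No test beyond that of the total was run on these shares.

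**Figure D5:**
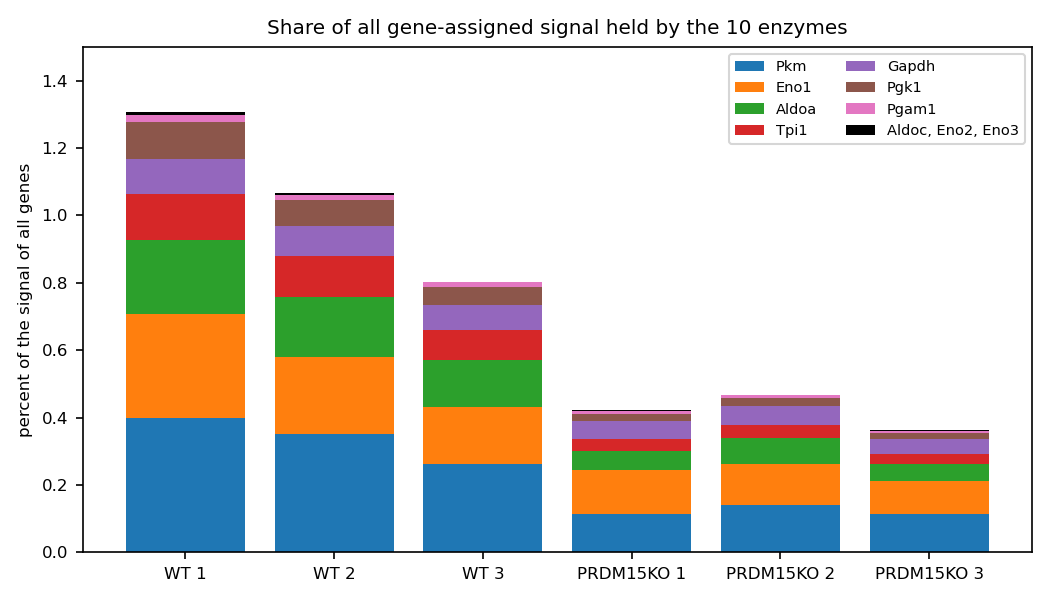
Percent of the signal of all genes held by the 10 enzyme transcripts in each library (bars from 0, stacked by gene). The WT bars reach 1.31%, 1.07% and 0.804% and the PRDM15KO bars 0.421%, 0.469% and 0.363%.

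Most other genes for the same steps had very low values. Of 10 further isozymes and copies, 8 stayed below a value of 1 in every library, including the testis forms Aldoart1, Aldoart2, Gapdhs and Pgk2, the muscle mutase Pgam2, Eno4, and the liver and red cell pyruvate kinase Pklr. Pklr reached 0.534 in WT replicate 1 and Aldoart1 0.827 in WT replicate 2. Eno1b, a near copy of Eno1 that may share reads with it, was at 3.00 ± 0.700 in WT and at 1.62 ± 0.184 in PRDM15KO, lower in all 3 pairs without passing (log2 change -0.60, paired limma adjusted p = 0.147). Bpgm, which diverts the product of Gapdh to 2,3-bisphosphoglycerate, was at 6.17, 6.37 and 9.37 in WT and at 6.95, 10.1 and 12.9 in PRDM15KO, higher in all 3 pairs without passing (log2 change 0.39, paired limma adjusted p = 0.185).

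Of 22 listed genes for the other parts of glycolysis, 16 were tested, and 5 fell, 0 rose and 11 did not pass in the paired limma fit, against 0.741% of all tested genes lower. With an unadjusted p under 0.05 in that fit there were 10 of the 16, and 21% of all tested genes. The unpaired limma fit called 0 of the 16, paired edgeR called 4 lower (0.323% of all tested genes), and paired DESeq2 called 8 lower and 0 higher (3.99% and 3.02%). Their median log2 change was -0.38. The phosphofructokinases Pfkl (log2 change -1.85) and Pfkp (-1.12), which act just ahead of aldolase, fell with paired limma adjusted p of 0.0125 and 0.0187 (unpaired 0.122 and 0.194). Lactate dehydrogenase, Ldha, which uses the pyruvate, fell by 1.37 on the log2 scale (paired limma adjusted p = 0.0313, unpaired 0.168). The lactate exporter gene Slc16a3 had a log2 change of -4.43 (paired limma adjusted p = 0.0146, unpaired 0.150). The list was assembled with results of these data known.

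The 5 genes outside the 10 whose log2 values over the 6 libraries correlated most with the mean standardised profile of the tested members were Mif, Erlec1, Slc16a3, Ldha and Gpi1, with Pearson's r of 0.997, 0.994, 0.994, 0.993 and 0.992. The groups lie apart in these genes, so r mostly reflects the group difference and is a description only. Mif, an inflammatory cytokine, was at 732, 624 and 496 in WT and at 325, 369.8 and 301 in PRDM15KO. It fell by 0.88 on the log2 scale in the paired limma fit (adjusted p = 0.0429), but did not pass in unpaired limma (adjusted p = 0.374) or paired edgeR (0.0599). Gpi1, the isomerase of glucose 6-phosphate, was at 923 ± 237 and 395 ± 49.2 without passing (paired limma adjusted p = 0.0506). Erlec1, a lectin of the endoplasmic reticulum, was at 14.1 ± 1.16 and 10.6 ± 0.516 without passing (0.119). Among the members, r was 0.983 to 0.995 except for Eno3 at 0.708. Each member is itself part of that mean profile, which raises its r, so these values do not compare directly with those of outside genes.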

How the data were processed

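RNA-seq was deposited for 6 libraries, 3 per group. Per the submitters' processing notes, the tools were STAR 2.4.2a, CASAVA, edgeR and HTSeq, with build mm9. No source used here gives the annotation, the strand setting or how shared reads were handled. The deposited signal is called FPKM by its authors, but each value was a whole multiple of 1 step per library (100% of values, tolerance 0.01 reads), so it is reads over an effective library size and not divided by length. That size was 0.970 to 1.04 times the read total.

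Genes with a mean of at least 1 were tested with limma 3.58.1 (R 4.3.3) on log2(value + 1), trended variance, two-sided, Benjamini-Hochberg over all 10533. The unpaired fit was the planned main one. The design text speaks of biological replicates, but no label says whether they are separate mice or what equal numbers share, and p-values reflect the spread of these libraries alone. Deviations of equal-numbered libraries correlated at 0.73, 0.73 and 0.84, and those of unequal number at -0.61 to -0.14, so the numbers were taken as pairs. Deviations cancel within a group, so these correlations are not independent. By chi-square over degrees of freedom, libraries of replicates 1 (82.15) and 3 (49.45) differed least from their equal number. Replicate 2 did not (89.8): its WT library was nearer WT replicate 3 (68.1) and its PRDM15KO library nearer PRDM15KO replicate 3 (68.6). edgeR 4.0.16 and DESeq2 1.42.0 were run on recovered reads. The tests were checked on simulated counts. Every pair of libraries differed beyond sampling error (chi-square over degrees of freedom at least 49.5).

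Named genes are the 10 members, the listed isozymes (1 is not reported here), up to 4 genes by paired p per further list, and the 5 most alike in profile. Members and lists were chosen with earlier results of these data known. In the lists, 2 of 125 entries matched no row, 1 of them an older name of a listed gene. RefSeq names pseudogenes of Aldoa, Gapdh, Pgk1 and Pgam1, so reads shared with such copies could affect these values; this was not measured.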

Additional observations from a re-analysis of the deposited data

How the results depend on the processing

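Members called: 0 in the unpaired limma fit, under each other pseudocount, filter, scaling or left-out library tried without pairs, and in unpaired edgeR; 7 with the replicate block, 8 with unpaired DESeq2, 3 with edgeR and 9 with DESeq2 with the block. With the block the count was 8 with pseudocount 0.1 or quantile normalization, 7 with pseudocount 5 or equal totals, and 1 (Tpi1) with no filter on low values, alternatives chosen after seeing the data. Leaving out replicate 1, 2 or 3 from the block gave 9, 0 and 0. All genes called: 1 in the unpaired limma fit, 92 with the block, 0 and 39 with edgeR without and with the block, 110 and 738 with DESeq2. The count was 0 with pseudocount 0.1 or 5, no filter, quantile normalization, any library left out, or without PRDM15KO replicates 2 and 3 (319 at an unadjusted p under 0.05). With the block it was 130 and 81 with pseudocount 0.1 and 5, 5 with no filter, 129 with quantile normalization, 81 with equal totals, and 0 to 840 with a pair left out. The cause was not tested.

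The median log2 change of the members stayed within 0.38, the SD of the pair medians, of its main value in all 25 alternatives. Of 225 refits of single members, 1 turned sign, Eno3 (0.075 without PRDM15KO replicates 2 and 3). Of 100 refits of ratios 7 turned sign: Aldoc/Aldoa (0.23 with pseudocount 5), Eno3/Eno1 (-0.09 without WT replicate 3, -0.21 without PRDM15KO replicate 1, in a range up to 0.60 with 1 library left out), Tpi1/Aldoa (0.11 without PRDM15KO replicates 2 and 3) and Eno1/Pgam1 (0.044 without WT replicate 1, 0.03 without PRDM15KO replicate 3, down to -0.19 with another library left out, and 0.18 without PRDM15KO replicates 2 and 3 together). With all 6 libraries kept, the limma and ratio refits with the block repeat the estimates found without it. The refit with no filter likewise repeats the main estimate of each tested member. Such repeats are counted above but are no separate check of sign or size. Depth limits Eno2 (8 to 22 reads) and, less so, Aldoc.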

Other observations

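Of 8 tested genes at branches from these steps, 0 passed in the paired limma fit over all genes, where 3 had an unadjusted p under 0.05, as did 21% of all tested genes. With the pairs, edgeR called 0 and DESeq2 called 1 lower (Tkt) and 1 higher (Taldo1), against 3.99% and 3.02% of all tested genes. The pentose phosphate enzymes Tkt, transketolase, and Taldo1, transaldolase, were at 984 ± 43.0 and 852 ± 12.1 and at 174 ± 28.9 and 209.7 ± 48.2 in WT and PRDM15KO. Ketohexokinase, Khk, was at 5.87 ± 3.37 and 3.38 ± 1.17, and Gpd1l at 329 ± 18.1 and 342 ± 22.7. Of 3 tested gluconeogenic genes 0 passed in limma, edgeR or DESeq2 with the pairs (1 at an unadjusted limma p under 0.05, against 21% of all tested genes), with pyruvate carboxylase, Pcx, at 7.90 ± 2.71 and 5.43 ± 1.603, G6pc3 at 15.2 ± 2.41 and 15.7 ± 3.16 and Pck2 at 76.6 ± 20.5 and 75.8 ± 18.2.

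Of 7 tested genes for known regulators of glycolysis, 0 passed in the paired limma fit, where 2 had an unadjusted p under 0.05, against the same 21%. With the pairs, edgeR called 0 and DESeq2 called 1 lower (Myc) and 1 higher (Epas1), against 3.99% and 3.02%. Myc was at 716 ± 117 in WT and 571 ± 140 in PRDM15KO (log2 change -0.34, paired limma adjusted p = 0.153). Arnt, the partner of HIF1A, was at 46.5 ± 9.18 and 43.4 ± 8.43, and the glucose sensor gene Mlxip at 39.8 ± 5.44 and 36.5 ± 5.01. Epas1, which encodes HIF2A, was at 0.641, 0.526 and 0.300 in WT and at 1.26, 5.67 and 1.11 in PRDM15KO (log2 change 1.10, paired limma adjusted p = 0.200). The highest of these libraries, PRDM15KO replicate 2, also had the highest sum of myeloid markers. PRDM15KO replicate 1 had the lowest such sum, 32.7, while its Epas1 value of 1.26 was above each WT library. The part of those markers was not tested.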
